A study of Homo sapiens with 3 samples.

Results

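The direct comparison of the NGP and IMR-32 neuroblastoma cell lines is described here, gene by gene, outside the chromosomal regions that are amplified or lost in either line. IMR-32 and NGP are established human neuroblastoma lines that both carry MYCN amplification. Each was grown untreated, and polyA RNA of each was hybridized to 1 Affymetrix U133 Plus 2.0 array, beside an array for a reference pool of 16 cancer cell lines. The lines were not grown in the same medium. Per the study's methods NGP was kept in RPMI and IMR-32 in Minimum Essential Medium with non-essential amino acids and pyruvate, so the medium and the cell line cannot be told apart.

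Members were chosen by a fixed rule. The log2 ratio of the NGP signal over the IMR-32 signal was taken for each probe set that names 1 gene symbol, and a gene with several of them was given their median. Genes of the 9 amplicon spans and 5 losses that the study lists for the lines were set aside, which left 18450 of the 19775 measured genes. The amplicons lie on chromosome 2 in both lines and on chromosome 12 in NGP. IMR-32 has losses on chromosomes 1 and 16, and NGP on chromosomes 10, 11 and 19. Other copy number changes of the lines were not analysed here. A gene was called higher or lower in NGP within the top or bottom 7% of all measured genes, at a log2 ratio of at least 1.95 (3.86-fold) or at most -1.84 (3.59-fold). It was read as firm where the higher of its signals was at or above the median signal of that array, 89.9 in IMR-32 and 98.8 in NGP, which held for 11158 genes (60.5% of those outside the regions). With 1 array a side the differences have no replicate check, no p-value is given, and the number of arrays limits the precision. The log2 ratios of different probe sets of a gene had a standard deviation of 1.28 over 10523 genes, and of 0.86 among firm probe sets (6680 genes). This is a spread between probe sets on the same arrays, and it holds no variation between arrays or cultures.

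Neuroblastoma arises from the sympathoadrenal lineage of the neural crest, whose cells become sympathetic neurons or the chromaffin cells of the adrenal medulla. Transcription factors such as PHOX2A, HAND2, GATA2, GATA3 and ISL1 hold this identity and turn on the enzymes that make noradrenaline from tyrosine. A minority of sympathetic neurons use acetylcholine instead, for which they need choline acetyltransferase and the vesicular acetylcholine transporter.

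Both lines expressed most sympathetic markers, and outside the listed regions most firm genes were at similar levels in them. Of the 10 measured sympathetic markers, 9 in IMR-32, 10 in NGP and also 9 in the pool had signals at or above the array median. This count does not set IMR-32 apart from the pool. The summed signal of the markers was 23737 in IMR-32, 52598 in NGP and 7219 in the pool. The 6 epithelial markers summed to 387 and 311 in the lines, against 57316 in the pool, and neither measured Schwann cell marker reached the median of any array. Of 11158 firm genes, 8395 (75.2%) differed by less than 2-fold, 487 (4.36%) were called higher in NGP and 615 (5.51%) lower. Over all 18450 genes outside the regions 6.82% were called higher and 6.95% lower, and the median log2 ratio was 0.00. Below, firm calls of a gene list are often counted among all its measured members. The matching background is 487 firm higher and 615 firm lower genes of the 18450.

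Many of these calls set a clear signal against a dim one. In 366 of the 487 higher genes the IMR-32 signal lay below its array median, and in 497 of the 615 lower genes the NGP signal did. Where the lower signal was dim, its exact size rests on background, and the log2 ratio is no measure of the size of the difference. The difference is then also given as "at least N-fold", with the dim signal of each probe set raised to the median of its array and the median taken over the probe sets. The level of a gene with several probe sets is the median of their signals in each array. Where levels and ratio would differ by more than 0.3 on the log2 scale, the probe sets are given instead. All probe sets of the gene pointed the same way in 466 of the higher and 576 of the lower genes.

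**Figure D1:**
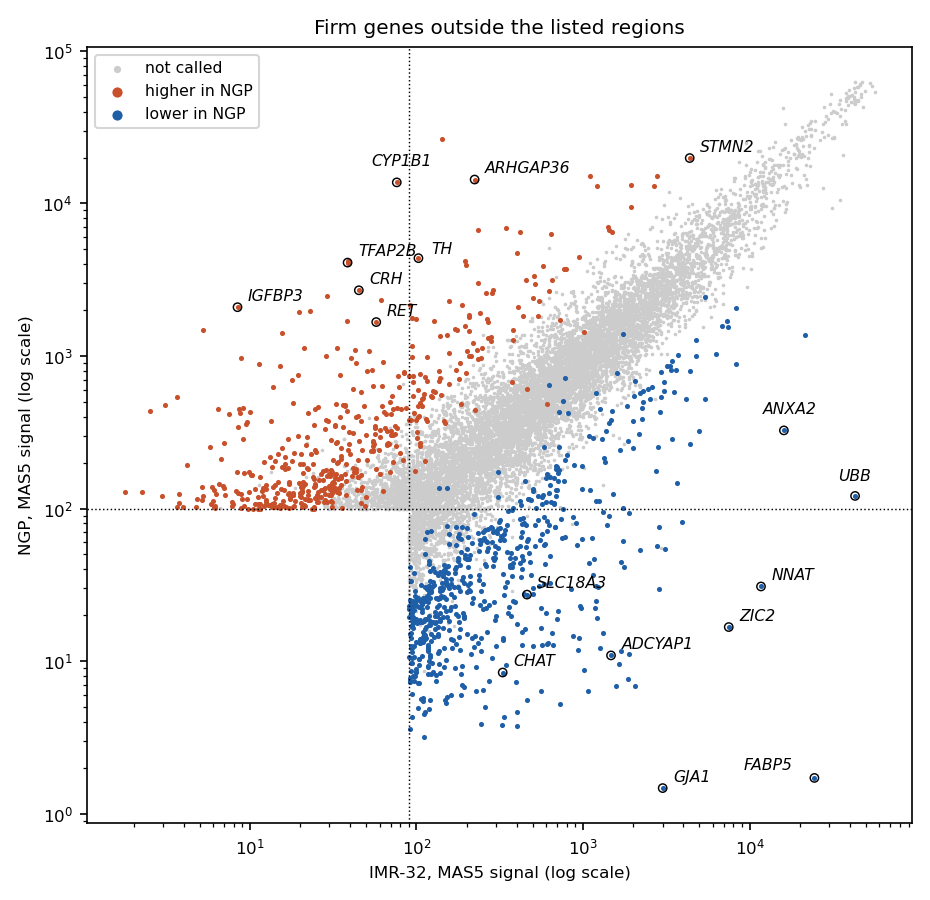
MAS5 signal of each firm gene outside the listed regions in IMR-32 (x-axis) and NGP (y-axis), both on log scales, with genes called higher in NGP, lower in NGP or not called in different colours and the median signal of each array as a dotted line. Named genes are ringed; TH lies near the IMR-32 median and at 4379 in NGP, and FABP5 at 24491 in IMR-32 and 1.72 in NGP.

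Genes of transmitter synthesis differed between the lines. Among 13 measured genes of catecholamine synthesis and transport 4 were called higher in NGP and 2 lower, and among 14 cholinergic genes none was called higher and 2 were called lower. To show the promoters concerned, the 300 bases from 250 before to 50 after the start are given for DBH, which makes noradrenaline, and for CHAT and SLC18A3, which make acetylcholine and load it into vesicles (RefSeq, GRCh38.p14, plus strand in each case). DBH lies at chr9:133636113-133636412, CHAT at chr10:49608845-49609144 and SLC18A3 at chr10:49610060-49610359. The starts of the cholinergic genes are 1215 bases apart in the same direction, and SLC18A3 is known to lie within an intron of CHAT. Capitals mark CG dinucleotides, of which the windows hold 8, 15 and 33, against a median of 14 over the 27305 promoters of the table. Over the windows of 9039 firm genes outside the regions the median was 26.
DBH: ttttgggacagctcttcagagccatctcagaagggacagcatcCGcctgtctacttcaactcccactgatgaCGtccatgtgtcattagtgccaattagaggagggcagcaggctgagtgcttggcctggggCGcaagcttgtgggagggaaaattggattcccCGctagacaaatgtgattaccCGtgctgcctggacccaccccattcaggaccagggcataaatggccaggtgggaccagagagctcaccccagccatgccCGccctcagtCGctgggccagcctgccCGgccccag
CHAT: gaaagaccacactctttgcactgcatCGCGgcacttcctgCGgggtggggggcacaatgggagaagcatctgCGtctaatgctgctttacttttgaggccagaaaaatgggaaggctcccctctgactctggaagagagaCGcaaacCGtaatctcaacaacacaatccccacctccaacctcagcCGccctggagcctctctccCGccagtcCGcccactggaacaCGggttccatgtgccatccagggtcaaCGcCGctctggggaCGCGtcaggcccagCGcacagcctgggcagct
SLC18A3: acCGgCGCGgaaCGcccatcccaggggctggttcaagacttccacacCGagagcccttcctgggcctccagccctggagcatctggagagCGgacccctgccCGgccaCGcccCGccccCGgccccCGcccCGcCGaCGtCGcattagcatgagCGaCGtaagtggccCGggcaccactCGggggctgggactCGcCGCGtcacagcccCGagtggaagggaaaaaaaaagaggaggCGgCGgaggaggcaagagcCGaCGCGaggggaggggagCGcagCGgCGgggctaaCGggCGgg

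TH, tyrosine hydroxylase, the rate-limiting enzyme of catecholamine synthesis, had a signal of 103 in IMR-32, 4379 in NGP and 271 in the pool. NGP thus stood 42.6-fold above IMR-32 (log2 ratio 5.41, from 1 probe set), and IMR-32 was below the pool. DBH, dopamine beta-hydroxylase, was at 119 in IMR-32, 1258 in NGP and 132 in the pool by its firm probe set (log2 ratio 3.40). A probe set dim in all 3 arrays gave 1.38, so that the gene's ratio was 2.39 and at least 3.25-fold. DDC, the decarboxylase between these enzymes, was at 791 and 3699 (log2 ratio 2.03), and CYB561, the cytochrome that supplies electrons to DBH inside the vesicle, at 110 and 565 (2.27). The 3 enzymes of noradrenaline synthesis were therefore all higher in NGP.

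The other catecholamine genes differed in both directions or were not called. GCH1, which makes the cofactor of tyrosine hydroxylase, was lower in NGP, at 3419 in IMR-32 and 924 in NGP (log2 ratio -1.89). This ratio lay near the cut-off of -1.84. PNMT, which turns noradrenaline into adrenaline, was at 123 in IMR-32 and 28.2 in NGP (-2.12, at least 1.24-fold). The noradrenaline transporter SLC6A2 was at 546 and 804 (0.48), and MAOA, which degrades catecholamines, was at 295 and 1004 (1.80). Neither of the last was called. The vesicular monoamine transporters SLC18A1 and SLC18A2 had levels below the median in both lines.

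On the cholinergic side, CHAT was at 329 in IMR-32, 8.42 in NGP and 21.5 in the pool (log2 ratio -5.29, at least 3.33-fold). SLC18A3 was at 461 in IMR-32, 27.3 in NGP and 109 in the pool (-4.08, at least 4.66-fold). Both genes were thus above the median in IMR-32 alone of the lines, each from 1 probe set. The other cholinergic genes were not called, and the nicotinic receptor subunits were similar in the lines. CHRNA3 was at 8238 in IMR-32 and 4567 in NGP (-0.65), CHRNA5 at 1525 and 1770 (0.21) and CHRNB4 at 430 and 338 (-0.35). The choline transporter SLC5A7 (22.7 and 25.4) and acetylcholinesterase ACHE (12.2 and 23.5) were below the medians of both arrays.

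**Figure D2:**
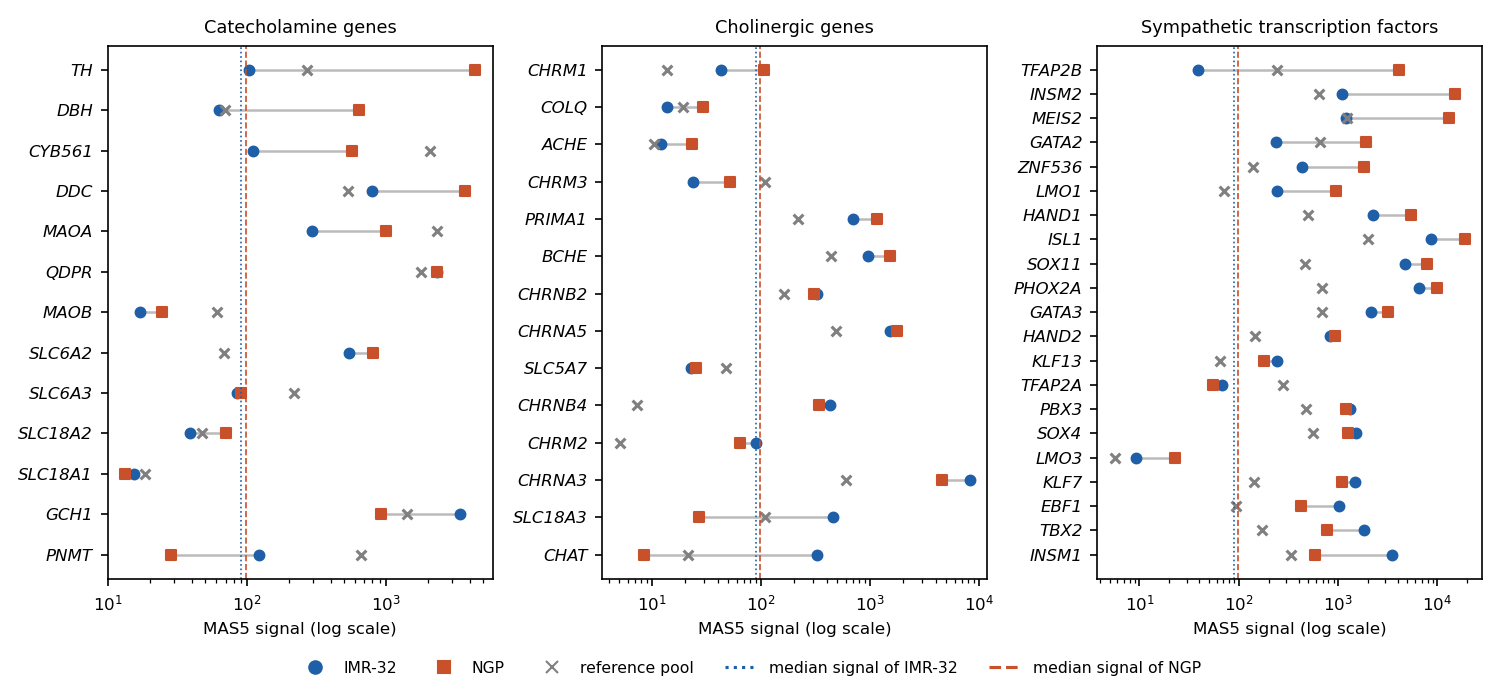
MAS5 signals (x-axis, log scale) in IMR-32, NGP and the reference pool of every measured catecholamine gene, cholinergic gene and sympathetic transcription factor outside the listed regions, ordered by the log2 ratio of NGP over IMR-32, with the median signals of the lines as vertical lines. TH, DBH, DDC and CYB561 lie to the right in NGP, CHAT and SLC18A3 cross below the medians in NGP, and PHOX2A, HAND2, GATA3 and SOX11 lie close together in the lines.

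PHOX2A, HAND2, GATA3 and ISL1 were not called, whereas GATA2 and 5 other factors of the list were higher in NGP. PHOX2A was at 6553 in IMR-32 and 9948 in NGP (log2 ratio 0.60), HAND2 at 829 and 928 (0.16), GATA3 at 2145 and 3156 (0.56) and ISL1 at 8676 and 18755 (1.11). Each of these was higher in both lines than in the pool. Of the 21 measured sympathetic factors 6 were called higher and 1 lower, all of them firm. TFAP2B, a transcription factor of the sympathoadrenal and neural crest lineages, was at 71.9 in IMR-32, 4095 in NGP and 244 in the pool by the middle one of its 3 probe sets (log2 ratio 5.83). The others gave 3.90 and 7.62, and the gene was at least 45.5-fold higher.

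The other factors called higher were all above the median in both lines. INSM2, a zinc finger factor related to INSM1, was at 1105 in IMR-32 and 15198 in NGP (3.78). MEIS2, a homeobox factor, was at 1209 and 13074 (3.44), and GATA2 at 239 and 1923 (3.01). ZNF536 (2.08) and LMO1 (1.99), a LIM-domain cofactor, followed with smaller ratios. INSM1, a regulator of endocrine and neuronal differentiation, went the other way (-1.90). Its 2 probe sets were at 6815 in IMR-32 and 1072 in NGP (-2.67) and at 190 and 87.3 (-1.12). MEIS2 and INSM2 were thus higher in NGP while a close relative of INSM2 was lower.

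A further group of neural crest and neuronal factors differed in both directions, with 3 of 47 firm and higher in NGP and 5 firm and lower. ZIC2, a zinc finger factor of the dorsal neural tube, was at 7495 in IMR-32, 16.7 in NGP and 776 in the pool (log2 ratio -8.81, at least 75.9-fold, from 1 probe set). Its neighbour ZIC5 was at 174 and 12.9 (-3.75, at least 1.76-fold). ZIC1 was the opposite by 2 probe sets (9.34 and 4.47), while the third, dim in both lines, gave -0.42, and the gene was at least 1.61-fold higher. The related basic helix-loop-helix genes NHLH1 (657 and 12.8, log2 ratio -5.69, at least 6.66-fold) and NHLH2 (log2 ratio -2.66, with its brighter probe set at 12712 and 2843) were both lower in NGP. LHX9, a LIM homeobox factor, was lower in all 4 of its probe sets (-4.67 to -1.51, at least 4.98-fold). POU4F2 (55.0 and 640, 3.54, at least 7.12-fold) and POU3F2 (35.0 and 250, 3.10, at least 2.38-fold), POU-domain factors of neurons, were higher in NGP. Of 28 measured HOX genes only HOXB4 was firm and called, at 163 in IMR-32 and 12.1 in NGP (-3.74, at least 1.65-fold).

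Several neuropeptides differed, while the granins that fill dense-core vesicles were expressed in both lines. CHGA was at 2930 in IMR-32 and 6565 in NGP (log2 ratio 1.16), CHGB at 1409 and 2610 (0.89) and SCG2 at 1839 and 5043 (1.46), none of them called. CRH, corticotropin-releasing hormone, was at 45.1 in IMR-32, 2697 in NGP and 112 in the pool (6.04, at least 18.8-fold), and its 2 probe sets gave 5.87 and 6.22. ADM, adrenomedullin, was at 197 and 3964 (4.33), and CALCB, a calcitonin gene-related peptide, at 36.0 and 481 (3.74, at least 5.34-fold). Lower in NGP was ADCYAP1, which encodes the peptide PACAP, at 1472 in IMR-32, 10.9 in NGP and 27.8 in the pool (-6.93, at least 13.2-fold, both probe sets agreeing). PENK, proenkephalin, was at 516 and 34.8 by its firm probe set (-3.89), but a dim probe set gave -0.05, so that the gene's ratio was -1.97 and at least 2.29-fold. Of 26 measured genes of this list 3 were firm and higher and 2 firm and lower, beside 487 and 615 of all 18450 genes outside the regions.

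Receptors for growth factors of the GDNF family were arranged differently in the lines. RET, the signalling receptor tyrosine kinase, was at 57.3 in IMR-32, 1669 in NGP and 383 in the pool, and its 3 probe sets gave log2 ratios of 4.33, 4.86 and 7.76 (at least 18.6-fold). The co-receptors that present ligands to RET were lower in NGP. GFRA2 was at 3194 in IMR-32 and 859 in NGP (-1.90, near the cut-off of -1.84), and GFRA1 at 434 and 86.8 (-2.18, at least 4.39-fold). Of 11 firm receptor tyrosine kinases on a separate list none was called. The growth factor midkine, MDK, was abundant in both lines (7826 and 3849, -1.02).

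Of 30 measured genes of the neuronal cytoskeleton and growth cone 2 were called higher and 1 lower, and the list median was 0.52. With log2(signal + 32), where the cut-offs are lower, 9 were called higher and 2 lower. STMN2, a microtubule regulator of growing axons, was at 4369 in IMR-32 and 19839 in NGP (2.20), and DCX, doublecortin, at 1490 and 6504 (2.16). MAP6, which stabilizes microtubules, was lower, at 717 and 180 (-2.05). Among 31 synaptic vesicle genes CADPS, a priming factor of dense-core vesicle release, was higher in all 6 probe sets (2.58 to 7.02, at least 10.7-fold). DNM1, the neuronal dynamin, was at 176 and 1410 by its firm probe set and at 2.59 over both, and SYP, synaptophysin, was lower at 211 and 28.6 (-2.88, at least 2.13-fold). The vesicle list had 3 called higher (9.68%), 2 of them firm, and 1 firm and lower (3.23%). Over all genes outside the regions 6.82% were called higher and 6.95% lower. With log2(signal + 32) the vesicle list had 9 higher and 3 lower.

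Among ion channels and receptors more genes were higher than lower in NGP, several of them from low signals. Of 45 measured voltage-gated channel genes 5 were firm and higher and 3 firm and lower. The sodium channel SCN3A was at 84.5 in IMR-32 and 1762 in NGP by its firm probe set (4.38), and a dim one gave 0.57, for a gene ratio of 2.48 (at least 4.43-fold). CACNA2D2, an accessory calcium channel subunit, was at 112 and 730 (2.70). KCNB2, a potassium channel, was lower, at 433 and 78.7 (-2.55, at least 4.15-fold). Of 34 glutamate, GABA and glycine receptor genes 4 were firm and higher and 1 firm and lower. The AMPA receptor gene GRIA2 was at 99.2 in IMR-32, 1735 in NGP and 12.8 in the pool (4.13), with a further, dim probe set at -0.47. GRIA1 was at 9.44 and 360 (5.23, at least 2.93-fold). GRIK2 was called lower at -2.39, but its 6 probe sets ranged from -3.76 to 0.53 and the brightest was higher in NGP.

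The 15 highest and 15 lowest firm genes whose probe sets all agreed ranged well beyond these, and 9 of the 15 highest had 1 probe set. The highest ratios were those of GSTT2, a glutathione transferase (5.20 in IMR-32, 1490 in NGP, log2 ratio 8.16, at least 16.6-fold), and IGFBP3, which binds insulin-like growth factors (8.42 and 2089, 7.86, at least 18.9-fold). CYP1B1, a cytochrome P450 of oestrogen and xenobiotic metabolism, was at 76.2 in IMR-32, 13741 in NGP and 875 in the pool, and its 4 probe sets gave log2 ratios from 6.18 to 7.95 (median 7.25, at least 133.2-fold). ARHGAP36, a regulator of hedgehog and protein kinase A signalling, was at 223 and 14345 (64.2-fold), and it was the only gene of the 15 whose lower signal was not dim. The remaining 10, in order, were PTER, S100A11, IMPA2, RERG, PPFIBP2, LINC02381, LAMP5, PCDH17, LOC105378311 and TRIP10, with CRH given above. Their "at least" folds started at 1.43 (LOC105378311).

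At the other end, FABP5, a fatty acid binding protein, was at 24491 in IMR-32, 1.72 in NGP and 11567 in the pool (log2 ratio -13.80, at least 248-fold). GJA1, a gap junction connexin, was at 3007, 1.47 and 4367 (-11.00, at least 30.4-fold). NNAT, neuronatin, an imprinted gene, was at 11704 in IMR-32, 30.9 in NGP and 677 in the pool (-8.57, at least 118-fold). UBB, a polyubiquitin gene, was at 42972 in IMR-32, 121 in NGP and 50424 in the pool (-8.47). For FABP5 and UBB the pool resembled IMR-32, so NGP was the array that stood apart. Each of these 4 genes is measured by 1 probe set, as are 14 of the 15 lowest genes, and near-identical copies of FABP5 and UBB exist elsewhere in the genome. UBBP1, a UBB pseudogene with its own probe set, was also lower (1514 and 124, -3.61).

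The rest of the 15 lowest were ARMCX2, SLC38A5, EYA2, LYPD1, RALYL, CNGA3, NUDT19, AMIGO2 and FAIM, besides ZIC2 and ADCYAP1. EYA2, a transcriptional cofactor of development, was at 1636 in IMR-32 and 9.57 in NGP (-7.42, at least 16.6-fold). Their signals in IMR-32 ran from 401 (AMIGO2) to 2054 (ARMCX2) and those in NGP from 3.74 (AMIGO2) to 12.2 (FAIM).

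**Figure D3:**
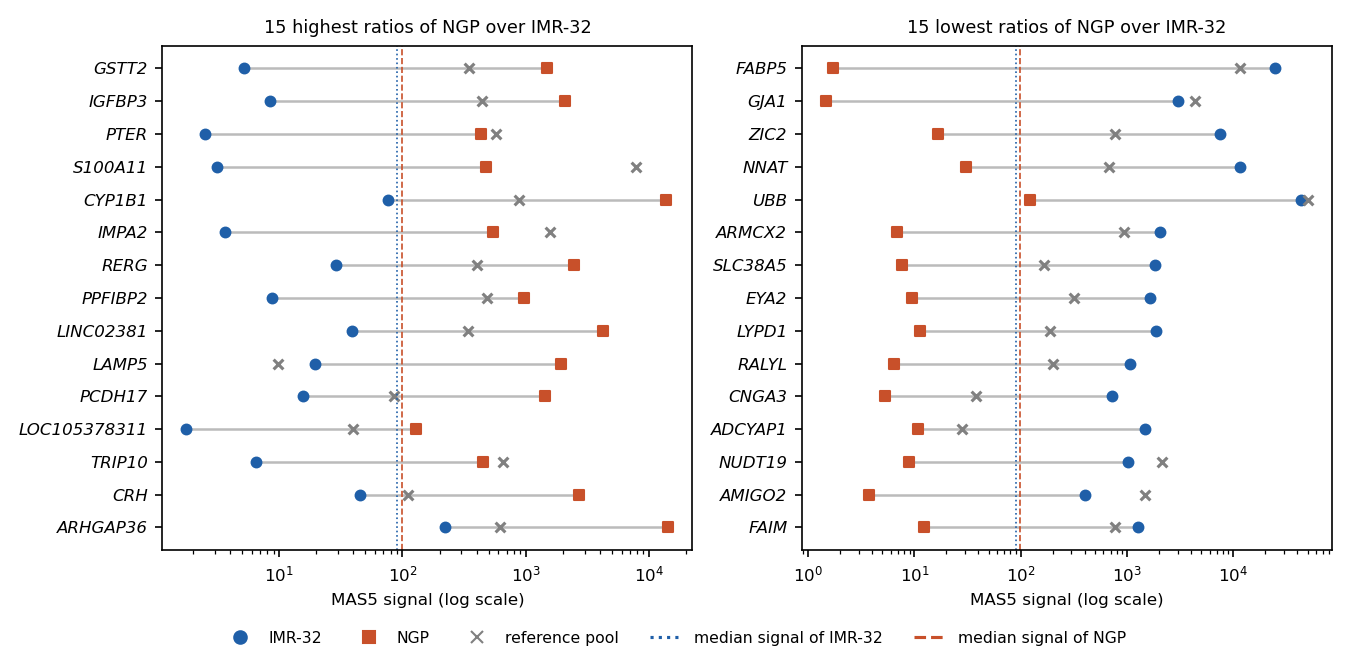
MAS5 signals (x-axis, log scale) in IMR-32, NGP and the reference pool of the 15 genes with the highest and the 15 with the lowest log2 ratio of NGP over IMR-32, among firm genes outside the listed regions whose probe sets agreed in direction. In 28 of the 30 genes the lower signal lies left of the median line of its array, and UBB and ARHGAP36 are the exceptions.

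Since dim signals decide the order of those genes, the genes whose level was at or above the median in both lines were read separately. They numbered 121 higher and 118 lower. After ARHGAP36 and TH, the highest were TAGLN2, an actin-binding protein of the transgelin family (233 in IMR-32, 6680 in NGP, log2 ratio 4.69), LHX8, a LIM homeobox factor of forebrain cholinergic neurons (90.9 and 2162, 4.57), and CHODL, chondrolectin (196 and 4202, 4.42). Then came DHRS2, a short-chain dehydrogenase (4.36), ADM (4.33), NSG2, a neuronal endosomal protein (346 and 6869, 4.31), UBE2QL1 (4.16) and RGS4, a regulator of G protein signalling (418 and 6512, 4.04, with 3 probe sets within 3.96 to 4.33). After UBB, the lowest were PRTFDC1 (3666 and 148, -4.63), QNG1 (-4.30), DYNLT3, ANXA2P2, POPDC3, RPL22L1 (21377 and 1382, -3.95), RAB4A (4958 and 321, -3.73, 3 probe sets), UBBP1 and EZR. EZR, ezrin, which links the membrane to actin, was at 3411 and 285 (-3.58) and all 5 of its probe sets were lower in NGP. The place of QNG1 rests on 1 of its 2 probe sets, which was dim in NGP (1375 and 6.99, -7.62), while the other gave 2717 and 1373 (-0.98). UBE2QL1 likewise had 1 probe set that was dim in IMR-32 (52.6 and 1571).

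Among 37 measured genes of the mesenchymal state of neuroblastoma, 6 were firm and lower in NGP and 1 was firm and higher, while the list median was 0.18. ANXA2, annexin A2, was at 16064 in IMR-32, 325 in NGP and 26326 in the pool. Of its 4 probe sets 3 agreed closely (-5.73 to -5.52) and a dim one gave 0.33. The probe set of ANXA2P2, a transcribed copy of ANXA2, also gave a lower signal (4397 and 266). This 1 probe set, like the 3 agreeing ones of ANXA2, can detect related sequences. The copy and ANXA2 may therefore not be told apart. TEAD2 (log2 ratios -7.29 to -1.68 over 4 probe sets, at least 4.28-fold) and TEAD4 (604 and 70.8, -3.14, at least 6.11-fold), DNA-binding partners of YAP, were lower in every probe set. So was LOX, the collagen crosslinking enzyme (428 and 70.0, -2.61, at least 4.33-fold). S100A6, a calcium-binding protein, was at 2287 and 38.9 by its firm probe set (-5.88, and -4.75 over both, at least 4.81-fold). NOTCH3 had probe sets at 286 and 135 (-1.08) and at 116 and 14.8 (-2.96), for a gene ratio of -2.02 (at least 1.57-fold). S100A11 ran counter to them at 3.11 in IMR-32 and 479 in NGP (7.27, at least 5.33-fold), with 7790 in the pool. Of the mesenchymal marker list itself 3 of 6 genes reached the median in each line, summing to 1749 in IMR-32, 2669 in NGP and 5590 in the pool.

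The S100 and annexin genes as a family thus differed in both directions. S100A4 was higher (54.3 and 815, 3.91, at least 9.06-fold), S100A16 lower (429 and 40.3, -3.41, at least 4.35-fold) and ANXA4 lower, with probe sets at -4.50 and -1.03 (at least 2.58-fold). All of these were below their pool signals in both lines.

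Matrix and adhesion genes also differed by gene rather than as a group. Of 54 measured collagens, laminins and matrix glycoproteins 6 were firm and higher and 5 firm and lower. FBN1, fibrillin, was at 112 in IMR-32 and 1340 in NGP by the middle one of its 3 probe sets (log2 ratio 3.59, range 2.03 to 5.54, at least 4.19-fold), and NID2, nidogen, at 61.8 and 467 (2.92, at least 5.19-fold). COL5A1, a fibrillar collagen, was at 433 and 12.7 (-5.09, at least 4.38-fold), and LAMA5, a laminin chain, at 434 and 45.8 (-3.24, at least 4.39-fold). MGP, matrix Gla protein, was at 5647 and 126 by its firm probe set (-5.49), and a dim one gave -0.99 (gene ratio -3.24, at least 6.70-fold). Of 31 integrins and cadherins ITGB5, an integrin beta chain, was higher in all 4 probe sets (1.04 to 4.68, at least 6.71-fold). PCDH17, a protocadherin of neurons, was at 15.6 in IMR-32, 1422 in NGP and 85.5 in the pool (6.51, at least 15.8-fold, 3 probe sets), and PCDH9 at 43.1 and 401 (3.04, at least 2.67-fold, 4 probe sets). PCDHB16 was lower (611 in IMR-32, log2 ratio -5.56, at least 6.18-fold). Among 63 axon guidance genes 6 were firm and higher, led by EFNB2, an ephrin ligand (127 and 1696, 3.76), and SEMA6A (94.5 and 987, 3.17). A dim probe set of SEMA6A gave -1.45, against 2.24 to 4.46 in its others. The 5 firm and lower genes included SLIT1 (-2.76, at least 3.38-fold), whose firm probe set was at 1129 and 67.6 (-4.06).

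Secreted regulators of growth and patterning showed contrasts inside several pathways. Within the IGF axis IGFBP2 (2765 in IMR-32 and 15084 in NGP, log2 ratio 2.45) and the adaptor IRS2 (770 and 3729, 2.09) were higher beside IGFBP3, and IGFBP5 was lower in all 6 probe sets (-4.72 to -1.79, at least 3.35-fold). Of 52 WNT pathway genes 6 were firm and higher and 3 firm and lower. LGR5, the R-spondin receptor, was at 187 and 2164 (3.35), and SFRP1, a secreted WNT antagonist, at 547 and 2297 (2.04, 4 probe sets within 1.80 to 2.17). ZNRF3, the ligase that removes WNT receptors and is itself opposed by LGR5, was lower (3067 and 674, -2.19). In the TGF-beta and BMP group BMPR1B, a BMP receptor, was at 206 and 1796 (3.38, 3 probe sets), and GREM1, a BMP antagonist, at 25.5 and 465 (4.19, at least 4.97-fold). FSTL1 was lower, at 2012 and 332 by its brightest probe set (-2.60, which is also the gene's ratio, at least 3.01-fold), with -4.76 and -0.95 in the others. Of 25 measured Notch genes 3 were firm and lower and none higher, with HES6 at 2583 and 625 (-2.05), MFNG at -2.26 (at least 1.28-fold, probe sets disagreeing) and NOTCH3.

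Of 28 measured immediate early and ERK-feedback genes 5 were firm and higher in NGP and none was firm and lower. DUSP2, a MAP kinase phosphatase, was at 9.04 in IMR-32 and 459 in NGP (5.67, at least 5.11-fold). DUSP6, the ERK phosphatase, was at 124 and 535 (2.29), with 3 probe sets between 2.11 and 3.18, and IER3 at 175 and 1472 (3.08). ARC (55.7 and 265, 2.25, at least 2.95-fold) and NR4A3 (at least 2.08-fold, with a dim further probe set at -2.43) completed the group. The list median was 0.33, and 16 of its 22 firm genes were within 2-fold.

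Few interferon-stimulated genes were firm, 16 of 48, and 4 of these were lower and 2 higher in NGP. IFI44 was at 1682 in IMR-32, 44.6 in NGP and 406 in the pool (-5.39, at least 15.5-fold). IFI16, a DNA sensor, was at 250 and 12.5 by the middle one of its 3 probe sets (-4.32, at least 5.07-fold), and DTX3L at 432 and 15.5 (-4.80, at least 4.37-fold). Its partner PARP9 had probe sets at 445 and 8.16 (-5.77) and at 222 and 128 (-0.80), for a gene ratio of -3.28. IRF7 (33.0 and 268, 3.02, at least 2.98-fold) and HLA-G (2.09, with 4 probe sets from 0.89 to 3.47) were higher, the latter with probes that can also detect other HLA class I genes. B2M, the light chain of MHC class I, was at 15054 and 17316 (0.20) and at 14021 and 13730 (-0.03) by its firm probe sets.

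Genes of the proliferation machinery were at similar levels. None of 45 measured DNA replication and mitosis genes was called, 40 were within 2-fold, and their median was 0.00. All 45 were firm, and of all firm genes outside the regions 75.2% were within 2-fold. Among the 8904 genes with both signals at or above the medians, 121 were called higher and 118 lower. At that share few or no calls would fall in a list of this size. With log2(signal + 32) and its lower cut-offs, 3 were called higher and 1 lower. MCM7, of the replicative helicase, was at 7993 in IMR-32 and 8119 in NGP, TOP2A at 7690 and 9849 and CDK1 at 5453 and 6113. Likewise none of 31 ribosome biogenesis and MYC-target genes was called and 29 were within 2-fold, with nucleolin, NCL, at 8591 and 9098. Housekeeping genes had no calls among 23 (median 0.20), nor did 17 genes of cholesterol synthesis and uptake, whose median was -0.53. With log2(signal + 32) the former had 1 higher and 1 lower and the latter 1 lower. MYCN itself lies in the amplicons of both lines. Its brightest probe set was at 31846 in IMR-32 and 46144 in NGP (0.54), with 8493 in the pool, and the 4 firm ones of its 10 probe sets gave 0.54 to 2.77.

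Regulators of G1 and of cell death had single clear differences. CDKN2A, the locus of the tumour suppressors p16 and ARF, was at 231 in IMR-32, 6906 in NGP and 5640 in the pool by its brightest probe set (4.90, which is also the gene's ratio). A further firm probe set was at 22.8 and 1966 (6.43), a dim one gave 0.45, and the gene was at least 21.9-fold higher. It was the only one of 17 measured G1 regulators that was firm and called. Among 31 apoptosis genes 3 were firm and lower and none firm and higher. HRK, a BH3-only protein of neurons, was at 1323 in IMR-32 and 85.0 in NGP by the middle one of its 5 probe sets (-3.96). The range was -8.01 to -3.03, at least 13.4-fold. TNFRSF10B, a TRAIL receptor and p53 target, was at 687 and 120 (-2.51), with a further probe set at 2.27, and TNFRSF1A at 119 and 28.1 (-2.08, at least 1.2-fold). Of 23 measured p53 targets 1 was higher, TIGAR (102 and 598, 2.55), and 1 lower, TNFRSF10B, and CDKN1A was at 846 and 382 (-1.15, not called).

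Imprinted genes, which are expressed from 1 parental allele, had 3 firm higher and 4 firm lower calls among 26. Beside NNAT, MEST was at 2778 in IMR-32, 56.5 in NGP and 7089 in the pool (-5.62, at least 28.1-fold). PLAGL1, a zinc finger growth regulator, was at 1202 and 24.9 (-5.64, 3 probe sets from -10.19 to -5.10, at least 12.2-fold), and DIRAS3 at 569 and 120 (-2.25). PEG10 was higher, at 1406 and 6956 (2.29, both probe sets at 2.26 and 2.32). MKRN3 was at 11.8 and 130 (3.46, at least 1.45-fold). The other firm higher gene of this list was DDC, which is imprinted in some tissues. No DNA methylation was measured in these samples.

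**Figure D4:**
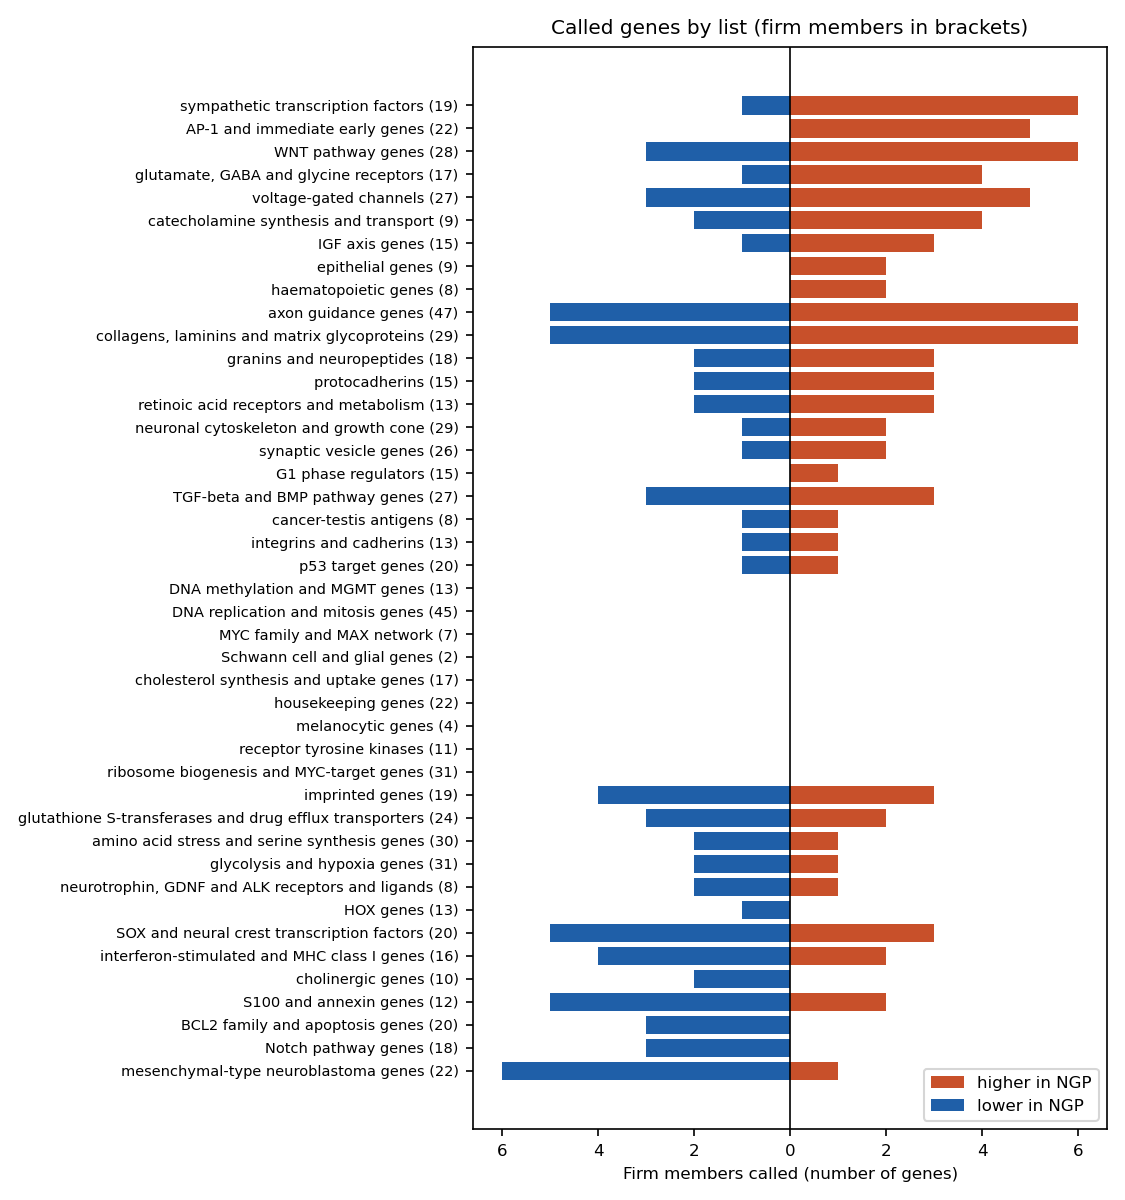
Number of firm genes called higher in NGP (right) and lower in NGP (left) for each of 43 gene lists, outside the listed regions, with the number of firm members in brackets. Sympathetic transcription factors had 6 higher and 1 lower, mesenchymal-type genes 1 higher and 6 lower, and 9 lists, among them DNA replication and mitosis, had no firm member called.

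Along the chromosomes, the direct ratio was also followed over 25 neighbouring measured genes outside the listed regions. The lowest median, -1.32, lay on chromosome 19 from ZNF304 to ZNF417, of whose 25 genes 22 are zinc finger genes by name. Of its 20 firm genes 5 were called lower and none higher, ZNF416 (-3.53, with probe sets at -4.70 and -2.37), ZIK1 (610 in IMR-32 and 82.8 in NGP, -2.88), ZNF814 (-3.30), ZNF671 (-2.61) and VN1R1 (-1.94). All had a dim NGP level, and the differences were at least 3.88-fold, 6.16-fold, 1.44-fold, 1.17-fold and 1.2-fold in that order. ZNF587 was the only gene of the run above 0 (0.53). A second stretch on this chromosome, from NLRP13 to ZIM3, had a median of -0.89. These genes lie outside the chromosome 19 loss listed for NGP, and related zinc finger genes can share probe sequences.

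By count, chosen after their values were seen, 7 of 187 measured zinc finger genes of chromosome 19 were called higher (3.74%) and 19 lower (10.2%), beside 7 of 236 and 16 of 236 on other chromosomes. Over all 1279 genes of chromosome 19 outside the loss the median was 0.21. On chromosome 1, from BCAS2 to GDAP2, the median was -1.14, with 5 of 15 firm genes lower and none higher. SLC22A15, a solute carrier (542 and 31.0, -4.13, at least 5.49-fold), and NHLH2 led that run. The highest median, 1.49, lay on the X chromosome from IL1RAPL1 to TSPAN7, but only 8 of its genes were firm and their median was 0.79, with TMEM47 (24.7 and 450, at least 4.4-fold) and LANCL3 (23.8 and 161, 2.76, at least 1.79-fold) higher and DYNLT3 lower. Medians of whole chromosomes ran from -0.30 on chromosome 6 to 0.21 on chromosome 19. Over firm genes they ran from -0.46 on chromosome 6 to 0.23 on chromosome 19, with -0.34 on chromosome 15 and -0.27 on chromosome 12.

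**Figure D5:**
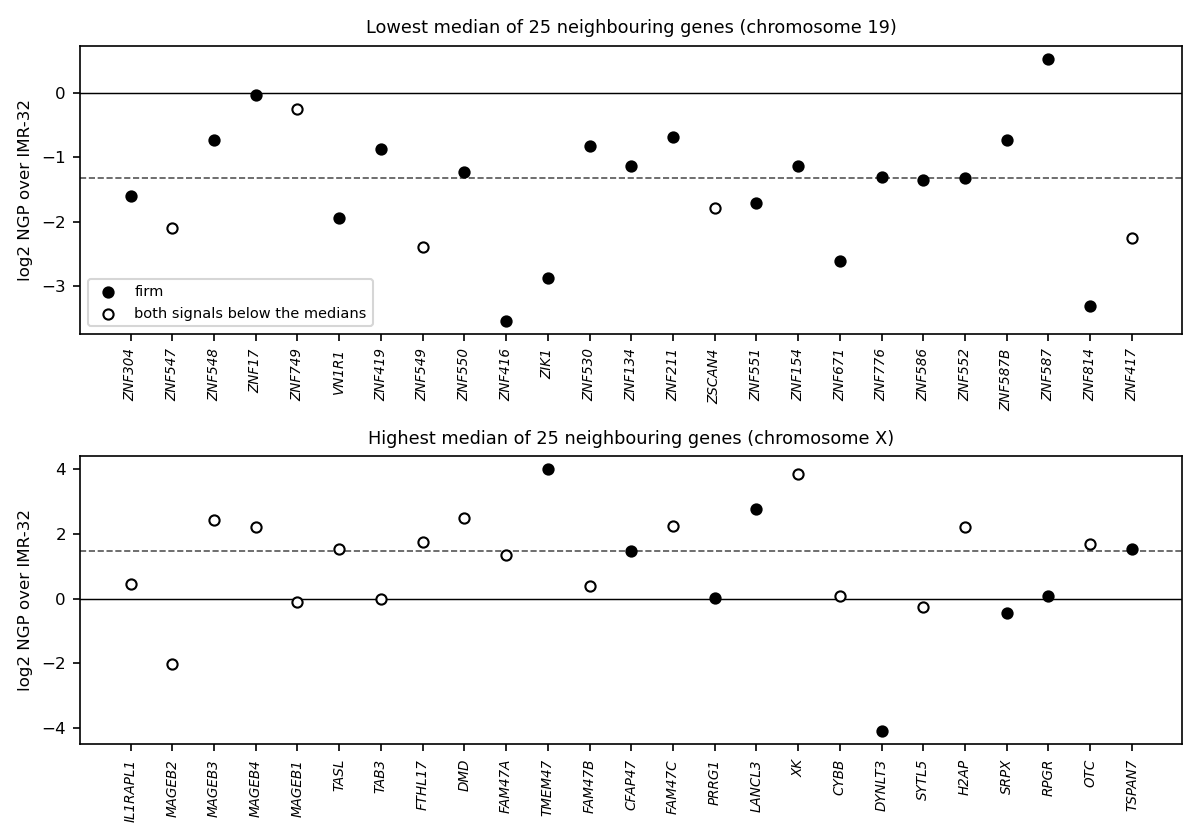
Log2 ratio of NGP over IMR-32 (y-axis) of each gene, in gene order (x-axis), in the runs of 25 neighbouring genes with the lowest and the highest median, with firm genes as filled and dim genes as open circles and the median as a dashed line. In the chromosome 19 run 24 of the 25 genes lie below 0, and in the X chromosome run most of the high values are open circles.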

How the data were processed

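The authors deposited MAS5 signal intensities, computed from the array images with affy in Bioconductor (version not given in the sources used here). They are linear intensity values with a 2% trimmed mean of 500 in each of the 3 arrays. Of 54675 probe sets, 62 controls, 1801 with several symbols and 11721 with none were left out, and 41091 were used, of which 41037 matched the reference gene table (GRCh38.p14), which gave symbols and gene order. Symbols that did not match were kept under the array's name. Log2 ratios of NGP over IMR-32 were computed without a pseudocount, and 7% cut-offs were taken over all 19775 genes (1384 at each end). A gene's level is the median signal over its probe sets. Each array has a median of its own and dim signals were defined against it.

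Each region was taken as the span between the outermost genes listed for it, or from such a gene to the chromosome end. Genes to be named were the 15 highest and 15 lowest firm genes with agreeing probe sets, the 10 on each side with both signals at or above the medians (added after the values were seen), called members of 43 gene lists, MYCN and the ends of the extreme runs. Called genes within a run, and uncalled list members given for context, were chosen after their values were seen. Genes of the Y chromosome and XIST were not named. The members and lists were chosen with earlier results of these data known. No test was run, since there is 1 array a side. Promoter windows came from RefSeq. The gene values were tested on simulated data. Python 3.11.15, numpy 2.4.6, pandas 2.3.3 and matplotlib 3.10.9 were used. Alternatives comprised quantile normalization, centring of the ratios on their median, log2(signal + 32), other probe set rules, other cut-offs, wider regions, other rules for firm genes and other run lengths. Raising dim signals to the array median was added after the data were seen.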

Additional observations from a re-analysis of the deposited data

How the results depend on the processing

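Counts of firm higher and lower genes outside the regions (487 and 615) stayed within 1.5 times under median-centred ratios, quantile normalization, the brightest or mean probe set, without _s_at and _x_at probe sets, with cut-offs at 5%, 10% or 4-fold, and with 10 further genes left out beside each region. They were 870 and 1006 with log2(signal + 32), whose cut-offs are 1.08 and -1.06, and 808 and 856 with dim probe sets left out. They were 121 and 118 where both signals had to reach the medians, 155 and 199 where the higher signal had to reach the 75th percentile, and 165 and 213 with dim signals raised to the array median. The share of higher among called genes ran from 43.7% to 50.6%. The lowest run median was -1.51 (NHLH2 to TENT5C, chromosome 1) over 15 genes, -1.06 (EDDM13 to C19orf18, chromosome 19) over 50 genes and -1.14 (VN1R1 to ZNF8, chromosome 19) over firm genes alone. The highest moved to 1.93 (SUN3 to POM121L12, chromosome 7), 0.69 (RPS12 to ADGRG6, chromosome 6) and 0.90 (PRKG1-AS1 to DNAJC12, chromosome 10), so the place of the highest run depends on the setting.

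Counts per gene list also moved with log2(signal + 32), to 9 higher and 2 lower for the cytoskeleton list, 9 and 3 for synaptic vesicle genes and 3 and 1 for DNA replication and mitosis.

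Of 192 named genes, 188 kept their call under quantile normalization, 188 with log2(signal + 32), 161 with the brightest probe set and 118 with dim signals raised to the median, where 71 lost it. With 10 further genes left out beside each region 190 kept their call. The other 2 named genes lie within these 10 genes of a listed region. Direction turned for GRIK2 and PCDHB13 with dim probe sets left out (0.033 and 0.32), with the brightest probe set (0.53 and 0.32) and with dim signals raised (0.14 and 0.23). It turned for STC2 with the brightest probe set (-0.29), for EFNA3 with dim signals raised (0.0067), and for ANXA2 (0.33), CA12 (0.28), MFNG (0.65) and MGST1 (0.52) without _s_at and _x_at probe sets. That setting leaves ANXA2, MFNG and MGST1 with dim probe sets alone, and the cause was not tested for the others. No paired analysis was possible because each group has 1 array. Ratios with a dim side depend on background, and differences in culture medium cannot be told apart from the line.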

Other observations

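Several gene groups outside the account above also differed. Among 20 measured genes on a list for retinoic acid signalling and metabolism 3 were firm and higher in NGP and 2 firm and lower. CRABP2, the cellular retinoic acid binding protein, was at 940 in IMR-32, 4439 in NGP and 9762 in the pool (log2 ratio 2.24). DHRS2, on the list as a short-chain dehydrogenase, was higher by 4.36, and any action on retinoids was not tested. RXRG, a retinoid X receptor, was at 137 and 11.6 (-3.56, at least 1.38-fold). Of 30 glutathione transferases and efflux transporters GSTM1 was lower (2014 and 549, -1.87, both probe sets), near the cut-off of -1.84. GSTM4 was lower as well (probe sets at -3.68 and -1.08), while ABCA1, the cholesterol exporter, was higher in all 4 probe sets (2.61 to 3.91, at least 2.10-fold). Amino acid stress genes had 1 higher and 2 lower calls among 33, with CTH, which makes cysteine from cystathionine, at 1477 and 378 (-1.90). CTH also lay near the cut-off and lost its call under quantile normalization. HK2, hexokinase 2, was lower in all 3 probe sets (-3.22 to -1.58), and of 33 glycolysis and hypoxia genes ADM alone was called higher.

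Of 36 measured genes on a list of cancer-testis antigens and other MAGE family genes 8 were firm. Its firm calls were MAGEH1, which was higher (105 and 765, 2.87), and MAGEE1, which was lower (316 and 84.6, -1.89). Both are MAGE family genes and are not read here as cancer-testis antigens. Among epithelial genes JUP, plakoglobin, was higher (140 and 552, 1.98) with 1545 in the pool.

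For the firm genes outside the regions, the signal of the reference pool was set beside those of the lines. In 273 of the 487 higher genes it lay between them, nearer NGP in 153 and nearer IMR-32 in 120. In 331 of the 615 lower genes it lay between them, nearer IMR-32 in 217 and nearer NGP in 114. It lay above both lines for 128 of the higher (26.3%) and 215 of the lower genes (35.0%), beside 36.4% of firm genes not called.

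Promoter windows of called genes were searched on both strands for the cyclic AMP response element TGACGTCA, which occurs in the promoters of several neuropeptide genes, and for the E-box CACGTG, to which MYC family proteins bind. The first was in 4 of 365 windows of firm higher genes (1.10%) and 7 of 438 of firm lower genes (1.60%), beside 3.23% of 9039 firm genes outside the regions and 1.98% of all promoters of this length. The second was in 9.04%, 8.22%, 10.4% and 7.43% of them. A match is a description of the letters in these windows. Neither motif was in the windows shown for DBH, CHAT and SLC18A3.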
